A study of Mus musculus with 27 samples.

Results

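Perforin (Prf1) and 9 granzyme genes (Gzma, Gzmb, Gzmc, Gzmd, Gzme, Gzmf, Gzmg, Gzmk and Gzmm) were followed in mouse CD8 T cells with reduced, normal or raised let-7. They were taken by gene symbol, and all 10 were found, each in 1 row, among the 35275 genes of the expression tables. The cells were P14 cells, whose transgenic receptor recognises a viral peptide, and the mice were on a Rag2-/- background, so that other T cells and B cells do not develop. In lin28Tg mice a Lin28b transgene blocks the maturation of let-7 microRNAs, in let-7Tg mice doxycycline switches on a let-7g transgene, and WT mice carry neither; per the methods of the study, mice of all groups were 6 to 10 weeks old, of both sexes, and drank doxycycline at 2 mg/ml for 4 days. Lymph node cells of each genotype were profiled as naive cells (0 h, no treatment), after 12 h with anti-CD3 at 2 µg/ml, anti-CD28 at 5 µg/ml and doxycycline at 2 µg/ml, and as day 5 cytotoxic T lymphocytes (CTLs). The CTLs were started with anti-CD3 at 2 µg/ml and irradiated splenocytes, received IL-2 at 100 U/ml at 48 h, and grew for 3 more days with doxycycline at 2 µg/ml. That gives 9 groups of 3 libraries, 27 in all. The lin28 transgene is already active in the thymus, before the cells mature, and stage, culture and any batch of a stage cannot be told apart.

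Cytotoxic T cells kill by releasing granules onto a target cell. Perforin forms pores in the target membrane, and granzymes, a family of serine proteases stored with it in the granule, enter the target and cleave proteins there. Granzyme B cuts after aspartate and activates caspases, granzyme A and granzyme K have trypsin-like specificity, and granzyme M cuts after methionine or leucine and is best known from natural killer (NK) cells. Granzymes C, D, E, F and G are rodent members that lie beside Gzmb in the genome. MicroRNAs of the let-7 family pair through their seed with sites in messenger RNAs and lower their output.

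The let-7 family and the granzyme promoters are shown first, because the study changes the former and the members of the latter moved in groups. All 9 mature let-7 family microRNAs in the RefSeq table carry the same seed, bases 2 to 8, in capitals below. Shown are let-7g, the microRNA that the transgene encodes (chr9:106178846-106178867, plus strand, build GRCm38.p6), with let-7a and let-7i for comparison.
mmu-let-7g-5p: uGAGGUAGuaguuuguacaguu
mmu-let-7a-5p: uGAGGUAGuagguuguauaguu
mmu-let-7i-5p: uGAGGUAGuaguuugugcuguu
The match to this seed, CTACCTC, occurred in the annotated 3′ UTR of 0 of the 10 genes (UTRs of 65 to 751 bases in GENCODE M21, the strand of the transcript searched). That describes these letters in these annotated windows only.

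In GRCm38, Gzmb and Gzmc to Gzmg form a cluster with Gzmn on the minus strand of chromosome 14, from 56117626 to 56262260, a span of 144635 bases. Gzme comes first, followed by Gzmd, Gzmg, Gzmn, Gzmf, Gzmc and Gzmb. Gzma (chr13:113093825-113100981) and Gzmk (chr13:113171608-113225908) lie near each other on chromosome 13, and Prf1 (chr10:61297833-61304680) and Gzmm (chr10:79689020-79695261) lie far apart on chromosome 10. The transcripts of Gzmc to Gzmg were 69.9% to 90.4% identical to each other and 48.1% to 49.8% identical to that of Gzmb. Of all stretches of 50 bases in a transcript, another gene also held 21.9% of those of Gzmd, 20.6% of those of Gzme, 19.8% of those of Gzmg, 7.36% of those of Gzmf and 4.14% of those of Gzmc, and 0% of those of the other members. Reads of those stretches are dropped by the counting tool when they map to several places, so that the levels of Gzmc to Gzmg may be less certain than those of the other members. With stretches of 100 bases the shares were 0.231% for Gzmd, 0.247% for Gzmg and 0% for the other members, and the read length is not given in the sources used here.

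The 5 similar genes also share their promoters. The 100 bases below, from RefSeq promoters of GRCm38.p6 and read on the minus strand, hold in capitals TGTGGT, the core of a Runx site, and a later TGANNTCA (the pattern of a cyclic AMP response element, which includes the exact form TGACGTCA) or, in Gzmb, the 7 letters of an AP-1 site, TGANTCA. They are Gzmb (chr14:56262328-56262427), Gzmc (chr14:56234666-56234765), Gzmd (chr14:56132606-56132705), Gzme (chr14:56120639-56120738), Gzmf (chr14:56211441-56211540) and Gzmg (chr14:56159608-56159707).
Gzmb: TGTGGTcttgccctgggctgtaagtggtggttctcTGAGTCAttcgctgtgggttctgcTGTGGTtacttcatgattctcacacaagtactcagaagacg
Gzmc: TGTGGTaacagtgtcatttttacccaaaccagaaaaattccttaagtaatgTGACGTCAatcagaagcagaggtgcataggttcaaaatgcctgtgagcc
Gzmd: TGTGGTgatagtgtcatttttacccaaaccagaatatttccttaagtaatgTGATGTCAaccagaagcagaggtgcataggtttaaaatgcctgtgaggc
Gzme: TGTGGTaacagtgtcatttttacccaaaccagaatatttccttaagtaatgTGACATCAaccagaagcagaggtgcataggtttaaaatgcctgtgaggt
Gzmf: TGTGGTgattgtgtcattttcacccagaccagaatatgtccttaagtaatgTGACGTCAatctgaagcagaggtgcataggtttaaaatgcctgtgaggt
Gzmg: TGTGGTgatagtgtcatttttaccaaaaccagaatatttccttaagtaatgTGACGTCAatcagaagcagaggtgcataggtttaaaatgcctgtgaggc
Any 2 of Gzmc to Gzmg had 88 to 97 identical bases of these 100, with the later motif starting 51 bases after the start of the Runx letters in each. Gzmb shared 23 to 25 bases at the same offset, with 35 bases between the starts. Its stretch begins at its first Runx letters and the others at their last, and no gaps were allowed, so these stretches are not aligned to each other. With gaps allowed, the 300-base promoters of Gzmc to Gzmg were 74.6% to 93.4% identical to each other and 46.8% to 51.7% identical to that of Gzmb. Searched on both strands of 300-base promoters (250 bases before the start and 50 after it), TGTGGT occurred in 9 of the 10 members, in all but Gzmk, and in 16.8% of the 32851 promoters in the table. The RefSeq start of Gzmk, on which its window rests, lies 44943 bases from the start of the gene in GENCODE M21, so that its window may not be the promoter in use. TGANNTCA occurred in Gzmc to Gzmg and in 14.1% of all promoters, TGACGTCA in Gzmc, Gzmf and Gzmg and in 1.79%, TGANTCA in Gzmb and in 7.81%, and TTCNNNGAA (a STAT site) in Gzmb and Gzmm and in 8.3%. A match of letters is a description and no measurement of binding.

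Levels are given as FPKM, reads per gene scaled by gene length and library depth, so that genes can be set side by side. Libraries held 13862679 to 23590836 counted reads. Lin28b stood at 56.4 to 67.9 FPKM in naive, 9.94 to 12.6 in 12 h and 14 to 22.4 FPKM in CTL lin28Tg libraries and at no more than 0.059 FPKM elsewhere. Col1a1, whose locus carries the inducible let-7g transgene, was at 9.06 to 62.8 FPKM in let-7Tg libraries and at no more than 4.93 FPKM in the others. Cd8a was present in every library, with group means of 117.9 to 524.1 FPKM. Differences are log2 values of FPKM + 0.5 fitted with limma, with the standard error (SE), and a call is a Benjamini-Hochberg adjusted p under 0.05 over all genes tested. The added 0.5 makes the difference of a gene near 0 smaller than its ratio. Bulk RNA cannot tell fewer cells of a type from less RNA per cell.

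Summed over the 10 members, naive libraries held 83.14 to 131.4 FPKM in WT, 117.8 to 229.5 in lin28Tg and 80.45 to 105.1 in let-7Tg. After 12 h the sums were 505.2 to 891.3, 1012 to 1886 and 157.9 to 447.0 FPKM in the same order. In CTLs they were 2259 to 3483, 9679 to 19300 and 1373 to 1853 FPKM, which is 0.316% to 0.438%, 1.11% to 2.2% and 0.191% to 0.257% of all counted reads. The lin28Tg ranges lay above the let-7Tg ranges at all 3 stages, and above the WT ranges at 12 h and in CTLs.

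**Figure D1:**
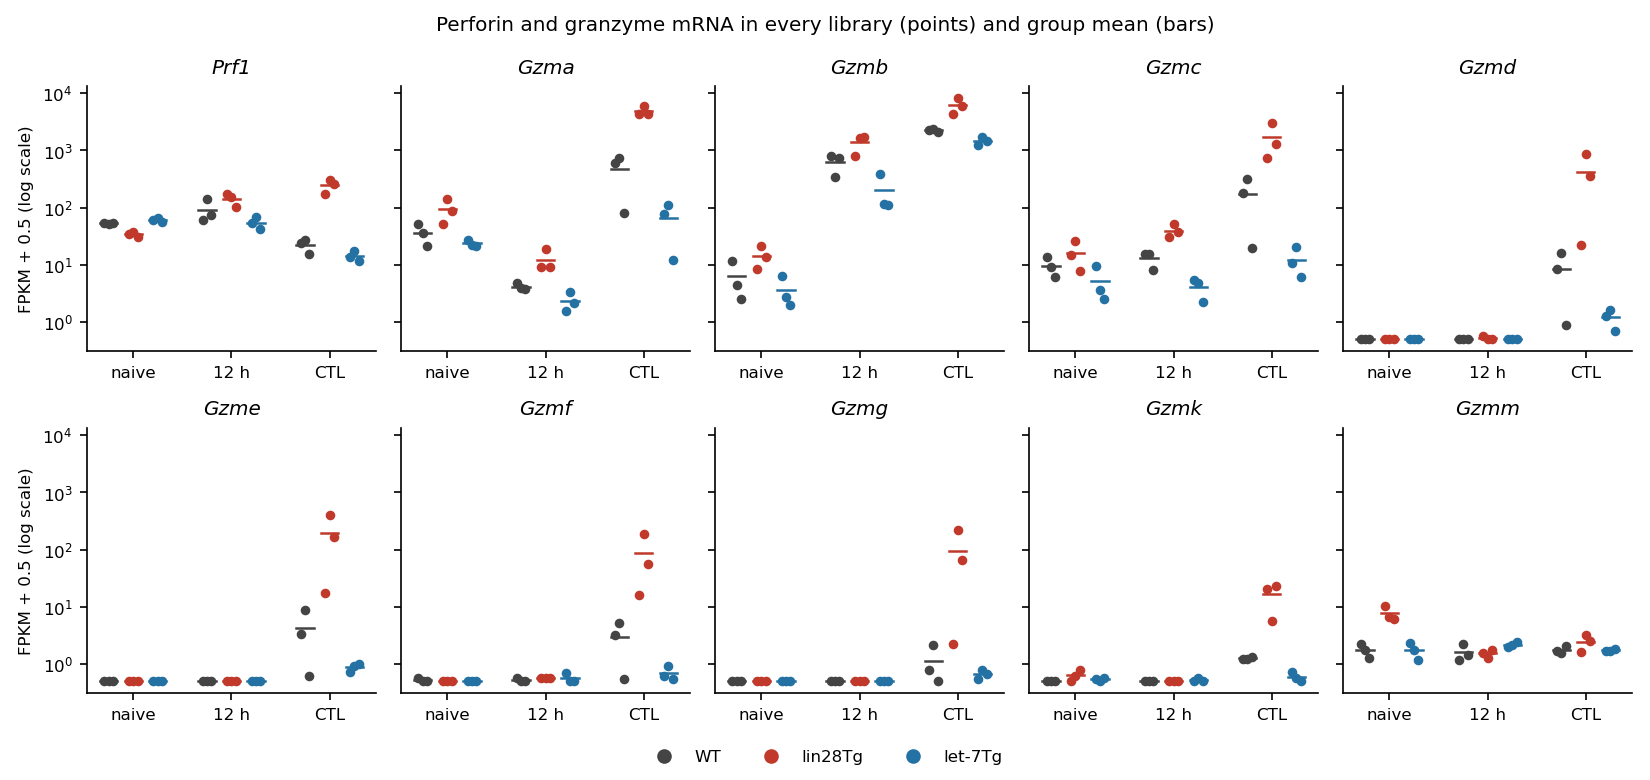
Each panel plots 1 of the 10 genes, with FPKM + 0.5 on a log axis, stage along the horizontal axis, a point for every library and a bar for each group mean. In CTLs the lin28Tg points lie above all WT and let-7Tg points for every member but Gzmm. Gzme, Gzmf and Gzmg had enough reads to be tested in CTLs only through the lin28Tg libraries. The share of all genes that separate in this way was not counted. Gzmd to Gzmg and Gzmk lie at or near 0 before the CTL stage.

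Prf1, the pore former, was lower in lin28Tg than in WT naive cells and higher in lin28Tg than in WT CTLs. In naive cells it stood at 53.4, 52.4 and 54.0 FPKM in WT, 33.8, 36.9 and 29.9 FPKM in lin28Tg, and 61.4, 65.3 and 55.0 FPKM in let-7Tg libraries. All 3 lin28Tg libraries lay below all others. After 12 h the values were 60.3, 141 and 75.3 FPKM in WT, 176, 155 and 101 FPKM in lin28Tg, and 53.4, 67.2 and 41.9 FPKM in let-7Tg. Here lin28Tg overlapped with WT, through the WT library at 141 FPKM, and lay wholly above let-7Tg. CTLs held 23.2, 26.5 and 14.8 FPKM in WT, 171, 307 and 254 FPKM in lin28Tg, and 13.3, 17.2 and 11.4 FPKM in let-7Tg. The lowest lin28Tg CTL library was thus far above the highest of the other genotypes, while WT and let-7Tg overlapped.

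In the fits, Prf1 was lower in naive lin28Tg than in naive WT cells (log2 difference -0.72, SE 0.10, limma adjusted p = 0.000824) and than in naive let-7Tg cells (-0.85, SE 0.10, adjusted p = 0.000195). At 12 h it was higher in lin28Tg than in let-7Tg cells by 1.40 (SE 0.30, adjusted p = 0.00741), and the difference of 0.68 from WT was not called (adjusted p = 0.195, or 0.034 without WT library 2, the high one). In CTLs it was higher in lin28Tg than in WT by 3.53 (SE 0.26, adjusted p = 0.000728) and than in let-7Tg by 4.17 (SE 0.26, adjusted p = 0.000117). The let-7Tg to WT difference in CTLs was -0.64, with a 95% interval of -1.23 to -0.04, and was not called (adjusted p = 0.355). Over time, WT Prf1 rose from naive to 12 h by 0.94 (adjusted p = 0.00283) and then fell by 2.18 on the log2 scale to the CTL stage (adjusted p = 1.61e-07). In lin28Tg cells it rose by 2.29 (adjusted p = 5.71e-08) and again by 0.69 (adjusted p = 0.0238). The second of these rises was not called without lin28Tg 12 h library 3 (adjusted p = 0.158), CTL library 2 (0.126) or CTL library 3 (0.0632). In let-7Tg cells Prf1 did not pass the test from naive to 12 h (0.05, adjusted p = 0.882) and then fell by 2.05 on the log2 scale (adjusted p = 3.99e-07).

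Gzma, a trypsin-like granzyme, was measurable in naive cells, fell from naive to 12 h in every genotype, and reached its highest levels in CTLs. Naive libraries held 51.5, 35.4 and 20.7 FPKM in WT, 51.8, 139 and 88.5 FPKM in lin28Tg, and 26.9, 21.6 and 21.2 FPKM in let-7Tg. The lowest lin28Tg value was next to the highest WT value. After 12 h they held 4.36, 3.4 and 3.27 FPKM in WT, 8.67, 18.4 and 8.70 FPKM in lin28Tg, and 1.08, 2.84 and 1.70 FPKM in let-7Tg, and no range overlapped with another. CTL libraries held 613, 752 and 80.5 FPKM in WT, 4315, 6046 and 4371 FPKM in lin28Tg, and 78.2, 109 and 11.8 FPKM in let-7Tg. The third WT library stood well below the other 2 and inside the let-7Tg range, and the third let-7Tg library was likewise the lowest of its group.

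Naive Gzma was higher in lin28Tg than in WT cells by 1.29 (SE 0.36, limma adjusted p = 0.0221) and than in let-7Tg cells by 1.87 (SE 0.36, adjusted p = 0.00288). The first call was lost without WT naive library 2 (adjusted p = 0.0565) or 3 (0.0769) and without lin28Tg naive library 2 (0.0687) or 3 (0.058). At 12 h the lin28Tg to WT difference was 1.48 (SE 0.32, adjusted p = 0.0211), not called without WT 12 h library 2 (adjusted p = 0.0543), WT library 3 (0.0685) or lin28Tg library 2 (0.0638). In CTLs the lin28Tg to WT difference of 3.91 (SE 0.93) had an adjusted p of 0.0513, and 0.00536 with the replicate block, the fit that compares libraries of the same replicate number. No label ties these numbers to a shared mouse or day, and the pairing was read from these same data. The lin28Tg to let-7Tg difference in CTLs was 6.79 (SE 0.93, adjusted p = 0.00144). The let-7Tg to WT difference was -2.87 (SE 0.93, adjusted p = 0.214), which passed with the replicate block (adjusted p = 0.0331) and without WT CTL library 3 (0.0434). From naive to 12 h Gzma fell by 2.81 on the log2 scale in WT (adjusted p = 0.000851), by 2.66 in lin28Tg (adjusted p = 0.00135) and by 3.18 in let-7Tg cells (adjusted p = 0.000255). By limma-voom on reads the fall was not called in WT (adjusted p = 0.0641) or let-7Tg cells (0.0884). From 12 h to CTL it rose by 6.19, 8.64 and 4.28 in the same order (adjusted p = 4.23e-08, 2.6e-10 and 8.35e-06).

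Gzmb, the caspase-activating granzyme, was the only granzyme called higher at 12 h than in naive cells, and the most abundant member in all 18 libraries of 12 h and CTL cells. Naive values were 11.3, 4.00 and 2.05 FPKM in WT, 7.87, 20.8 and 13.5 FPKM in lin28Tg, and 5.91, 2.26 and 1.48 FPKM in let-7Tg. After 12 h they were 811, 344 and 730 FPKM in WT, 797, 1661 and 1710 FPKM in lin28Tg, and 386, 114 and 111 FPKM in let-7Tg. The lin28Tg range touched that of WT and the WT range touched that of let-7Tg, while lin28Tg and let-7Tg stayed apart. In CTLs they were 2307, 2355 and 2142 FPKM in WT, 4373, 8237 and 5954 FPKM in lin28Tg, and 1269, 1704 and 1449 FPKM in let-7Tg, with no overlap between any 2 genotypes.

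The rise of Gzmb from naive to 12 h was 7.08 in WT (SE 0.54, limma adjusted p = 7.92e-11), 6.83 in lin28Tg (adjusted p = 1.74e-10) and 5.91 in let-7Tg cells (adjusted p = 1.64e-09). From 12 h to CTL it rose further, by 1.79, 2.13 and 2.97 (adjusted p = 0.0056, 0.00144 and 4.29e-05). Between genotypes, Gzmb was higher in lin28Tg than in let-7Tg cells at every stage, by 2.04 in naive (SE 0.59, adjusted p = 0.0185), 2.96 at 12 h (SE 0.53, adjusted p = 0.00321) and 2.14 in CTLs (SE 0.21, adjusted p = 0.000351). The naive call was lost without lin28Tg naive library 2 (adjusted p = 0.0631) or let-7Tg naive library 2 (0.0538) or 3 (0.0717). Against WT, the CTL difference of 1.46 was called (SE 0.21, adjusted p = 0.00986), and the differences of 1.35 in naive cells (adjusted p = 0.103, or 0.0223 without WT naive library 1) and 1.14 at 12 h (adjusted p = 0.222) were not. The let-7Tg to WT differences of Gzmb were -0.70, -1.82 and -0.69 in the order of the stages, and none was called (adjusted p = 0.654, 0.0911 and 0.188). The 12 h value passed without let-7Tg 12 h library 1 (adjusted p = 0.0214), the highest of its group.

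Gzmc, the neighbour of Gzmb, was the only one of the 5 similar cluster genes with more than a few reads before the CTL stage. It stood at 13.4, 8.64 and 5.61 FPKM in WT, 14.3, 26.1 and 7.41 FPKM in lin28Tg, and 9.05, 3.12 and 2.01 FPKM in let-7Tg naive libraries. After 12 h it was at 15, 14.8 and 7.58 FPKM in WT, 29.8, 50.6 and 36.6 FPKM in lin28Tg, and 4.86, 4.28 and 1.73 FPKM in let-7Tg, 3 ranges without overlap. In CTLs it was at 179, 317 and 19.0 FPKM in WT, 743, 3018 and 1297 FPKM in lin28Tg, and 10.3, 19.7 and 5.69 FPKM in let-7Tg. The third WT library again fell inside the let-7Tg range, as the plot of CTL libraries by replicate number shows.

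At 12 h Gzmc was higher in lin28Tg than in WT cells by 1.62 (SE 0.35, limma adjusted p = 0.023) and lower in let-7Tg than in WT cells by -1.72 (SE 0.35, adjusted p = 0.0411). The first call was lost without WT library 3 (adjusted p = 0.0701) or lin28Tg library 2 (0.104) or 3 (0.0756). The second call was lost when any of 8 of the 9 libraries was left out, all but let-7Tg library 1, with adjusted p of 0.0506 to 0.127. The lin28Tg to let-7Tg difference of Gzmc was 1.72 in naive cells (SE 0.55, adjusted p = 0.029), 3.34 at 12 h (SE 0.35, adjusted p = 0.000222) and 7.12 in CTLs (SE 0.95, adjusted p = 0.00129). The naive call was lost without lin28Tg library 1 (adjusted p = 0.0593) or 2 (0.0969) or let-7Tg library 2 (0.0807) or 3 (0.108). In CTLs the lin28Tg to WT difference of 3.84 (SE 0.95) had an adjusted p of 0.0576, and 0.00928 with the replicate block. The let-7Tg to WT difference in CTLs was -3.28 (SE 0.95, adjusted p = 0.162), with an adjusted p of 0.0338 with the replicate block and 0.0152 without WT CTL library 3. Gzmc rose from 12 h to CTL by 2.91 in WT (adjusted p = 0.0016) and 5.15 in lin28Tg cells (adjusted p = 2.66e-06), and in let-7Tg cells the difference was 1.40 (adjusted p = 0.104). In lin28Tg cells the difference from naive to 12 h was 1.64 (adjusted p = 0.0541, or 0.03 without lin28Tg naive library 2).

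Gzmd, Gzme, Gzmf and Gzmg were close to silent before the CTL stage. Over all 18 naive and 12 h libraries Gzmd had 1 read, Gzme 0, Gzmf 8 and Gzmg 0. In CTLs Gzmd stood at 8.02, 15.5 and 0.394 FPKM in WT, 22.2, 862 and 351 FPKM in lin28Tg, and 0.795, 1.15 and 0.210 FPKM in let-7Tg. For Gzme the values were 2.83, 8.16 and 0.118 FPKM in WT, 17.3, 408 and 168 FPKM in lin28Tg, and 0.221, 0.431 and 0.493 FPKM in let-7Tg. For Gzmf they were 2.71, 4.74 and 0.0599 FPKM in WT, 15.6, 190 and 55.0 FPKM in lin28Tg, and 0.113, 0.439 and 0.0558 FPKM in let-7Tg. For Gzmg they were 0.293, 1.63 and 0 FPKM in WT, 1.77, 221 and 64.8 FPKM in lin28Tg, and 0.0562, 0.291 and 0.167 FPKM in let-7Tg. For all 4 genes lin28Tg lay wholly above the other genotypes, the first lin28Tg library was the lowest and the second the highest of its group, and the third WT library was the lowest of its own.

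The fits gave lin28Tg to WT differences in CTLs of 5.32 for Gzmd (SE 1.37, limma adjusted p = 0.0651), 5.42 for Gzme (SE 1.17, adjusted p = 0.0374), 4.78 for Gzmf (SE 0.97, adjusted p = 0.0302) and 5.14 for Gzmg (SE 1.39, adjusted p = 0.0773). Gzme, Gzmf and Gzmg had enough reads to be tested in CTLs only through the lin28Tg libraries. They thus had to differ, and their p-values are no independent evidence of a difference. With the replicate block Gzmd (adjusted p = 0.0256) and Gzmg (0.0239) were called as well. Gzmd (adjusted p = 0.0144) and Gzmg (0.004) also passed without lin28Tg CTL library 1. Gzme was not called without WT CTL library 1 or 3, lin28Tg CTL library 2 or 3, or any let-7Tg CTL library (adjusted p of 0.0502 to 0.136), and Gzmf without the same libraries other than let-7Tg library 3 (0.052 to 0.106). Against let-7Tg, all 4 were higher in lin28Tg CTLs, by 7.46 (Gzmd, adjusted p = 0.00523), 7.01 (Gzme, 0.00348), 6.41 (Gzmf, 0.00216) and 5.66 (Gzmg, 0.019). The Gzmg call was lost without lin28Tg CTL library 2 (adjusted p = 0.0564) or 3 (0.071) or let-7Tg CTL library 1 (0.0634) or 2 (0.0529). The let-7Tg to WT differences, -2.14, -1.59, -1.63 and -0.51, were not called, with 95% intervals of -5.23 to 0.96 for Gzmd and -3.66 to 2.63 for Gzmg.

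Where a 12 h group held no reads, the ratio of the pooled CTL level to the 12 h level was bounded with a floor of 3 reads over the 3 libraries of the 12 h group. Among the stage differences that limma called, Gzmd was at least 120-fold higher in WT CTLs, and Gzme was at least 53.4-fold higher in WT and at least 3100-fold higher in lin28Tg CTLs. For Gzmg in lin28Tg the pooled CTL level was at least 1482-fold higher. These bounds are for the 3 libraries pooled and do not hold for each library. Single CTL libraries ranged from 1.77 to 221 FPKM for Gzmg in lin28Tg. In WT they ranged from 0.394 to 15.5 FPKM for Gzmd and from 0.118 to 8.16 FPKM for Gzme. Gzmd to Gzmg were tested between stages only through CTLs, and such genes had to differ. The stage difference was not called for Gzmg in WT (0.92, limma adjusted p = 0.38), nor in let-7Tg cells for Gzmd (1.17, 95% interval -0.66 to 3.01, adjusted p = 0.251), Gzme (0.79, adjusted p = 0.374) or Gzmg (0.40, adjusted p = 0.717). Across the alternative fits, the lowest adjusted p in let-7Tg cells was 0.017 for Gzmd and 0.0367 for Gzme. No bound is given for Gzmd in lin28Tg cells or for Gzmf, whose 12 h groups held 1 to 3 reads. Gzmn, the remaining gene of the cluster, was at 0 in all libraries but the 3 lin28Tg CTL libraries, which held 0.109 to 0.349 FPKM, 13 reads in all.

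**Figure D2:**
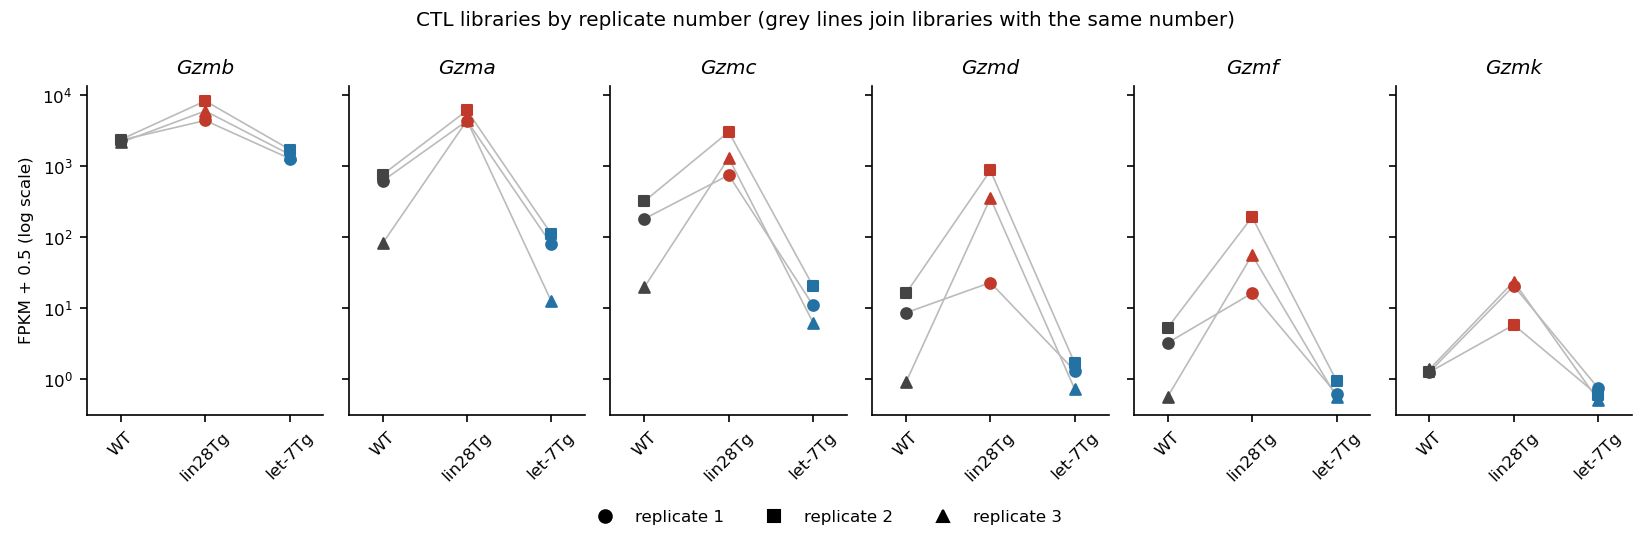
CTL libraries only, 1 panel each for Gzmb, Gzma, Gzmc, Gzmd, Gzmf and Gzmk, with FPKM + 0.5 on a log axis, a marker shape for each replicate number and grey lines that join libraries of the same number. Among the WT libraries, Gzma, Gzmc, Gzmd and Gzmf are lowest in library 3 (triangles), where Gzma was at 80.5 and Gzmd at 0.394 FPKM, while Gzmb stays between 2142 and 2355 FPKM in WT.

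Gzmk, the other trypsin-like granzyme of chromosome 13, was near 0 before the CTL stage and highest in lin28Tg CTLs. Its naive and 12 h libraries held between 0 and 0.290 FPKM. In CTLs it was at 0.745, 0.741 and 0.858 FPKM in WT, 19.9, 5.26 and 23.0 FPKM in lin28Tg, and 0.238, 0.0822 and 0 FPKM in let-7Tg, 3 ranges that did not overlap. Unlike Gzmd to Gzmg it was lowest in the second lin28Tg library. The lin28Tg to WT difference was 3.51 (SE 0.45, limma adjusted p = 0.00636) and the lin28Tg to let-7Tg difference 4.61 (SE 0.45, adjusted p = 0.000327). For let-7Tg against WT the difference was -1.11, with a 95% interval of -2.13 to -0.09, and was not called (adjusted p = 0.343). Against the floor for 0 reads at 12 h, the pooled CTL level of Gzmk was at least 13-fold higher in WT and at least 287-fold higher in lin28Tg cells.

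Gzmm, the granzyme best known from NK cells, was the member with the smallest range. Naive libraries held 1.71, 1.25 and 0.789 FPKM in WT, 10.0, 6.07 and 5.62 FPKM in lin28Tg, and 1.80, 1.26 and 0.670 FPKM in let-7Tg. All later libraries lay between 0.659 and 2.78 FPKM. Gzmm was higher in naive lin28Tg than in naive WT cells by 2.09 (SE 0.31, limma adjusted p = 0.0013) and than in naive let-7Tg cells by 2.15 (SE 0.31, adjusted p = 0.00062), and it fell by 2.10 on the log2 scale from naive to 12 h in lin28Tg cells (adjusted p = 8.99e-07). It was not called between genotypes at 12 h or in CTLs, where the lin28Tg to WT interval was -0.11 to 1.04. The lin28Tg to let-7Tg difference in CTLs was 0.52 (adjusted p = 0.177, or 0.0216 without lin28Tg CTL library 1).

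Counted over the members, the comparisons read as follows, with the sizes in the plot of log2 differences by stage. In naive cells and at 12 h only Prf1, Gzma, Gzmb, Gzmc and Gzmm passed the filter on low values, 5 of 10, and in CTLs all 10 did. Gzme, Gzmf and Gzmg passed in CTLs only through the lin28Tg libraries, and Gzmd to Gzmg and Gzmk passed in the fit over stages only through CTLs. Such genes had to differ, so the counts are also given over the 5 that passed at every stage. Between lin28Tg and WT, 3 of the 5 were called in naive cells (Gzma and Gzmm higher, Prf1 lower), where 34.9% of all genes tested were called, and 2 of 5 at 12 h (Gzma and Gzmc higher), beside 8.48% of all genes. In CTLs 5 of 10 were called (Prf1, Gzmb, Gzme, Gzmf and Gzmk, all higher), beside 4.34% of all genes, and with the replicate block 9 of 10, all but Gzmm. Of the 5 that passed at every stage, Prf1 and Gzmb were called. Limma-voom also called 5 of 10, with Gzma and Gzmc in place of Gzme and Gzmf, and the fit of all 27 libraries called 8, without Gzmb and Gzmm. The CTL count was 3 (Prf1, Gzmb and Gzmk) without WT library 1 or 3, lin28Tg library 2 or 3, or let-7Tg library 1 or 2, and these 3 were called whichever library of the 9 was left out. The 12 h count was 0 without WT library 3 or lin28Tg library 2 and 1 without lin28Tg library 3.

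Between let-7Tg and WT, limma called 0 of 5 in naive cells, beside 0.934% of all genes, and limma-voom on reads also called 0. At an unadjusted p under 0.05 the naive count was 0, beside 881 higher and 1051 lower of the 13277 genes tested. At 12 h limma called 1 of 5, Gzmc, lower, beside 3.24% of all genes. That count was 2 without let-7Tg library 1 and 0 without any other library. In CTLs limma called 0 of 10, beside 0.929% of all genes, and limma-voom called 0. At an unadjusted p under 0.05, 5 were lower in CTLs (Prf1, Gzma, Gzmb, Gzmc and Gzmk). Beside them, 813 of the 13030 genes tested were higher and 826 lower at that unadjusted p. With the replicate block, or without WT library 3, 2 of 10 were called, Gzma and Gzmc, both lower. Between lin28Tg and let-7Tg, 5 of 5 were called in naive cells (Prf1 lower, the others higher), beside 44.2% of all genes, and 3 without lin28Tg library 2 or let-7Tg library 2 or 3. The count was 4 of 5 at 12 h (Prf1, Gzma, Gzmb and Gzmc, all higher), beside 30.8% of all genes. In CTLs it was 9 of 10 (all but Gzmm, all higher), beside 21.6%. Of the 5 that passed at every stage, Prf1, Gzma, Gzmb and Gzmc were called in CTLs. Gzme, Gzmf and Gzmg were tested there only through the lin28Tg libraries and had to differ. Limma-voom called 5 in CTLs, without Gzmd to Gzmg. The lin28Tg to WT and let-7Tg to WT comparisons share their WT libraries, and each genotype enters 2 of the 3 comparisons.

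**Figure D3:**
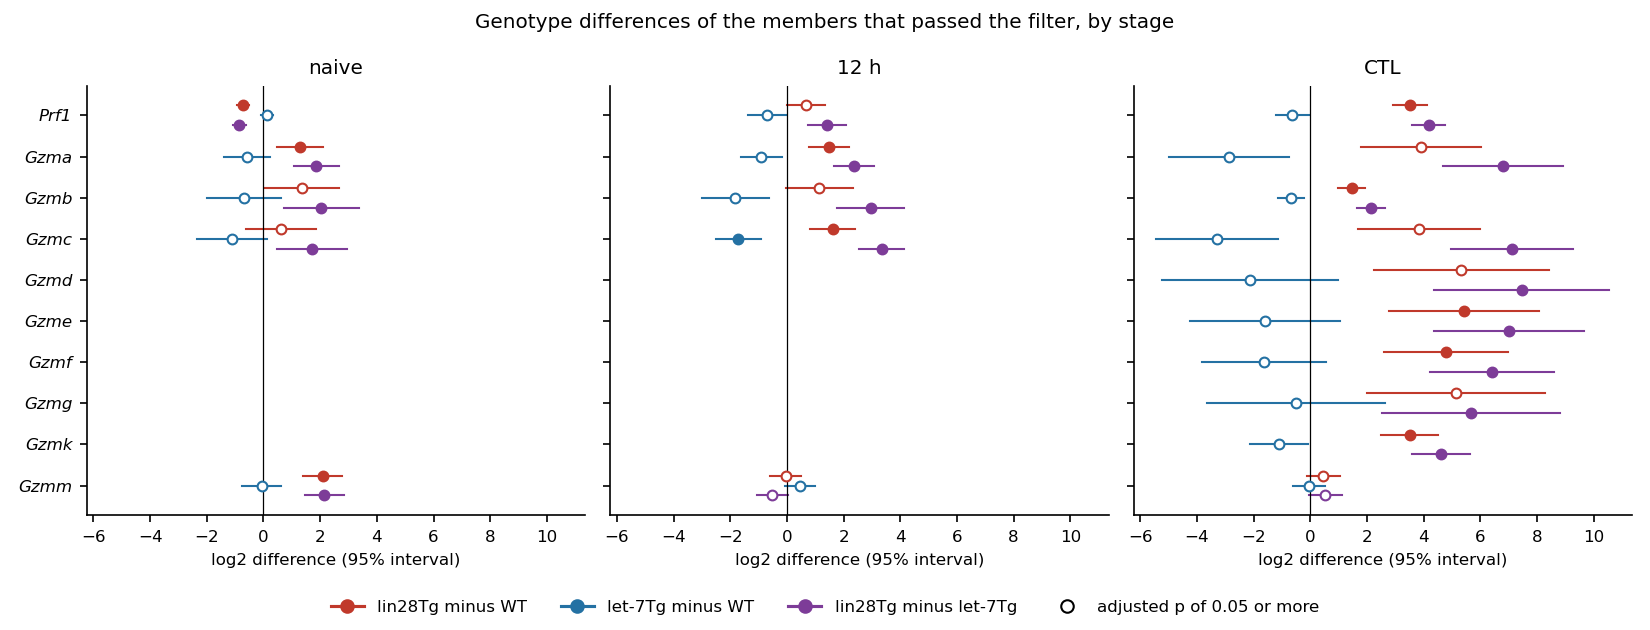
Log2 differences of the members that passed the filter, with 95% intervals, in 1 panel for each stage; colours give the comparison, filled points an adjusted p under 0.05 and open points a larger one. In CTLs the lin28Tg to WT and lin28Tg to let-7Tg points lie right of 0 for all 10 genes, and the let-7Tg to WT points lie left of 0.

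From naive to 12 h, 3 of 10 members were called in WT cells (Prf1 and Gzmb higher, Gzma lower), beside 71% of all genes, 4 in lin28Tg cells (the same genes in the same directions, with Gzmm lower), beside 73.5%, and 2 in let-7Tg cells (Gzmb higher, Gzma lower), beside 69.3%. All of these were among the 5 that passed at every stage, so that the counts over those 5 were also 3, 4 and 2. Gzmd, Gzme, Gzmg and Gzmk had at most 1 read in any group at 12 h and Gzmf at most 3. In any naive group these genes had at most 8 reads, so that they could hardly be called in this step. From 12 h to CTL, 8 of 10 were called in WT cells (Prf1 lower; Gzma to Gzmf and Gzmk higher), beside 67.5%, and 6 without WT CTL library 2, where Gzme and Gzmf were lost. The counts were 9 in lin28Tg cells (all but Gzmm, all higher), beside 66.3%, and 3 in let-7Tg cells (Prf1 lower, Gzma and Gzmb higher), beside 67.1%. Over the 5 that passed at every stage the counts were 4, 4 and 3, near the shares of all genes. Prf1 was thus lower in CTLs than at 12 h in WT and let-7Tg cells and higher in lin28Tg cells, a difference that was itself tested. The change from 12 h to CTL differed between lin28Tg and WT for 6 of 10 members (Prf1, Gzmd, Gzme, Gzmf, Gzmg and Gzmk), beside 6.39% of all genes, and of the 5 that passed at every stage for Prf1. By limma-voom it differed for Prf1 alone, and with only the libraries compared for Prf1, Gzmf and Gzmk. It differed between lin28Tg and let-7Tg for 8 of 10 (these and Gzma and Gzmc), beside 20.2%, of the 5 for Prf1, Gzma and Gzmc, and by limma-voom for Prf1 and Gzmk alone. Between let-7Tg and WT it differed for 0 of 10, beside 1.49% of all genes, and for 0 by limma-voom. Without WT CTL library 3 it differed for 2 (Gzma and Gzmf). At an unadjusted p under 0.05 it differed for Gzmk alone, beside 1077 genes higher and 653 lower of the 14453 tested. For Gzmb the difference between lin28Tg and WT was 0.34 larger in CTLs than at 12 h, with a 95% interval of -1.24 to 1.92 (limma adjusted p = 0.855).

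The order of the members changed with stage. In naive WT and let-7Tg cells Prf1 led, followed by Gzma, Gzmc, Gzmb and Gzmm, with Gzmc and Gzmb overlapping in range, and in let-7Tg also Gzmb and Gzmm. In naive lin28Tg cells Gzma led and Prf1 came next, with no overlap between them. After 12 h Gzmb led in every genotype with 60.1% to 92.0% of the summed FPKM, followed by Prf1, Gzmc, Gzma and Gzmm, and neighbours among these did not overlap in WT or lin28Tg cells. In CTLs the mix differed with genotype. Gzmb made up 67.6% to 94.8% of the summed FPKM in WT, 42.7% to 47.5% in lin28Tg and 91.9% to 97.9% in let-7Tg libraries, and Gzma 3.56% to 21.6%, 31.3% to 44.6% and 0.798% to 5.9%. In lin28Tg CTLs the ranges of Gzmb and Gzma overlapped, Gzma stayed above Gzmc, and from Gzmc through Gzmd, Prf1, Gzme, Gzmg and Gzmf to Gzmk each range overlapped with the next. Prf1 made up less than 3% of the sum in every CTL library, with a highest share of 2.02% in lin28Tg.

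Markers of other cells moved with genotype in the naive libraries. Summed over 9 NK cell marker genes, naive lin28Tg libraries held 184, 673 and 350 FPKM, WT libraries 123, 83.8 and 64 FPKM, and let-7Tg libraries 93.1, 50.8 and 49.6 FPKM. All 9 NK markers had a higher mean in naive lin28Tg than in naive WT libraries. Ncr1, which encodes the NK receptor NKp46, was at 7.62 to 26.2 FPKM in lin28Tg and 2.82 to 8.75 FPKM in WT naive cells. Summed myeloid markers were at 166 to 979 FPKM in lin28Tg and 35.1 to 59.0 FPKM in WT naive libraries, and Cd4 at 9.71 to 56.4 and 3.13 to 9.62 FPKM. Summed mast cell and basophil markers were at 11.5 to 28.5 FPKM in lin28Tg and 4.94 to 7.14 FPKM in WT naive libraries. Summed CD8 T cell markers were at 3320 to 3690 FPKM in lin28Tg, 3780 to 4320 in WT and 3850 to 4360 in let-7Tg naive libraries. Of the 7 CD8 T cell markers tested, Cd3g, Cd5 and Cd3e were called lower in lin28Tg than in WT and 0 higher, beside 34.9% of all genes. Within the naive lin28Tg libraries Gzma, Gzmb and Gzmc were highest in library 2, the highest in NK, myeloid, mast cell and basophil markers and in Cd4. Gzmm was highest in library 1, the lowest in NK markers and in those other markers. Gzmc was lowest in library 3 (7.41 FPKM), which lay between the others in these markers. Prf1 was lower in lin28Tg than in WT naive libraries while their NK marker sums were higher. The part of these cells in the naive values of the members was not tested.

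**Figure D4:**
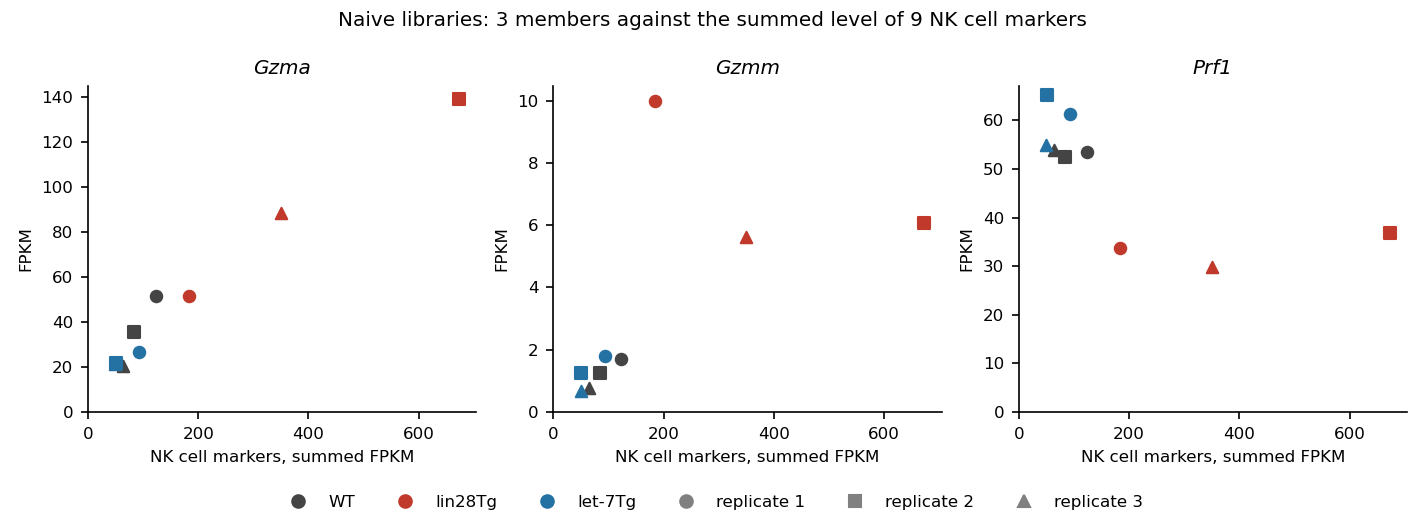
Naive libraries only, with the summed FPKM of 9 NK cell markers on the horizontal axis and the FPKM of Gzma, Gzmm and Prf1 on the vertical axes, 1 point a library. The 3 lin28Tg points lie right of the others, at 184 to 673 FPKM of NK markers, with Gzma at 51.8 to 139 FPKM and Prf1 at 29.9 to 36.9 FPKM.

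After 12 h the NK sums were lower, at 11.4 to 19.8 FPKM in WT, 18.5 to 47.5 in lin28Tg and 10.4 to 21.9 in let-7Tg libraries. At that stage mast cell and basophil sums were at 6.22 to 15.6 FPKM in lin28Tg and 1.12 to 3.57 FPKM in WT libraries. Between lin28Tg and WT at 12 h, 0 of 7 NK markers tested were called, beside 8.48% of all genes. Kit and Hdc, the 2 mast cell and basophil markers tested, and 3 of 6 myeloid markers tested were called higher in lin28Tg. In CTLs the NK sums were 14.1 to 54.0, 123 to 238 and 5.43 to 9.16 FPKM, and most of the lin28Tg sum came from Klrb1c (104.2 ± 49.4 FPKM, SD, n = 3) and Fcer1g (64.5 ± 40.1 FPKM). The NK markers Ncr1, Klra4, Klra8 and Klra9 had 0 to 4 reads in each CTL group as a whole. Of the 5 NK markers tested in CTLs, Klrb1c and Fcer1g were called higher in lin28Tg than in WT, beside 4.34% of all genes. All 5 (Klrb1c, Fcer1g, Tyrobp, Klre1 and Fcgr3) were called higher in lin28Tg than in let-7Tg, beside 21.6% of all genes. Myeloid sums in CTLs were 3.48 to 11.4 FPKM over all genotypes. B cell marker sums were lower in lin28Tg (31.9 to 142 FPKM) than in WT (190 to 242 FPKM) and let-7Tg CTLs (177 to 248 FPKM), nearly all of it Ighm, with Ms4a1 at 0 in all CTL libraries. The part of these genes in the 12 h and CTL values of the members was not tested.

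Some granzyme inhibitors of the serpin B family, which protect killer cells from their own granzymes, were called higher in lin28Tg than in WT cells at each stage. Of 4 tested, lin28Tg against WT gave 3 higher and 0 lower in naive cells (Serpinb9, Serpinb9b and Serpinb6b; median difference 1.02, against -0.04 over all genes), where 34.9% of all genes were called. It gave 2 higher and 0 lower at 12 h (Serpinb9 and Serpinb6b), beside 8.48% of all genes, and 2 higher and 0 lower in CTLs (Serpinb9 and Serpinb9b), beside 4.34%. The naive differences of the inhibitors also came with the marker values of other cells given above, and the part of those cells was not tested. Serpinb9, an inhibitor of granzyme B, stood at 33.0, 51.2 and 24.6 FPKM in WT, 76.2, 126 and 142 FPKM in lin28Tg and 15, 21.2 and 12.8 FPKM in let-7Tg CTLs, with no overlap. It was higher in lin28Tg than in WT CTLs by 1.72 (SE 0.31, limma adjusted p = 0.0197) and than in let-7Tg CTLs by 2.86 (SE 0.31, adjusted p = 0.000527). That against WT was lost without WT CTL library 1 (adjusted p = 0.0761) or 3 (0.0516) or lin28Tg CTL library 2 (0.0771) or 3 (0.0847). Serpinb6b, of the same family, was higher in lin28Tg than in let-7Tg CTLs by 2.58 (SE 0.41, adjusted p = 0.00292), and against WT its difference of 1.44 had an adjusted p of 0.0945 (0.0357 with the replicate block). Both genes rose in WT from naive to 12 h, Serpinb9 by 3.77 (adjusted p = 3.7e-11) and Serpinb6b by 3.49 (adjusted p = 1.01e-09), and fell to the CTL stage by 2.00 and 1.77 on the log2 scale (adjusted p = 1.09e-06 and 2.7e-05). Their highest stage was thus 12 h, when Gzmb was the one granzyme called higher than in naive cells in any genotype.

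At 12 h 2 of the 4 inhibitors were also called lower in let-7Tg than in WT cells, beside 3.24% of all genes. Serpinb9 was at 127, 135 and 115 FPKM in WT, 162, 210 and 193 FPKM in lin28Tg and 96.5, 92.5 and 75.3 FPKM in let-7Tg libraries, 3 ranges without overlap. It was higher in lin28Tg than in WT cells by 0.56 (SE 0.11, limma adjusted p = 0.0171) and lower in let-7Tg than in WT cells by -0.54 (SE 0.11, adjusted p = 0.0424, or 0.0534 with the replicate block). For Serpinb6b the values were 0.63 (SE 0.10, adjusted p = 0.0053) and -0.51 (SE 0.10, adjusted p = 0.0362). The lin28Tg to WT call of Serpinb9 was lost without WT 12 h library 1 (adjusted p = 0.0568) or 3 (0.0658) or lin28Tg 12 h library 2 (0.0782) or 3 (0.0721). The let-7Tg to WT call of Serpinb9 was kept only without lin28Tg library 1 or let-7Tg library 1, and otherwise had an adjusted p of 0.057 to 0.127. That of Serpinb6b was kept only without lin28Tg library 2 or let-7Tg library 1, and otherwise had an adjusted p of 0.0503 to 0.0956.

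Of 4 transcription factors that act on cytotoxic genes, Tbx21, Eomes and Prdm1 were higher in lin28Tg than in WT naive cells and Tbx21 and Prdm1 at 12 h, with 0 lower at either stage, beside the 34.9% and 8.48% of all genes called. Runx3, the fourth, differed by 0.04 and 0.55 (limma adjusted p = 0.819 and 0.12). Eomes, a T-box factor, was at 28.8, 15.7 and 14.9 FPKM in WT, 49.8, 39.8 and 42.5 FPKM in lin28Tg, and 13.8, 8.38 and 13.9 FPKM in let-7Tg naive libraries (1.14 for lin28Tg against WT, SE 0.25, limma adjusted p = 0.00769). In CTLs it was at 50.1, 53.3 and 69.3 FPKM in WT, 67.7, 77.5 and 142 FPKM in lin28Tg and 15.9, 20.9 and 44.6 FPKM in let-7Tg. The CTL difference of Eomes between lin28Tg and let-7Tg was called (1.97, SE 0.39, adjusted p = 0.00766), and that between lin28Tg and WT was 0.72 (adjusted p = 0.359, or 0.026 with the replicate block). Tbx21, which encodes T-bet, was higher in lin28Tg than in WT cells by 1.33 in naive cells (SE 0.30, adjusted p = 0.00878) and 0.83 at 12 h (SE 0.16, adjusted p = 0.0137, or 0.0529 without WT 12 h library 3). Prdm1, which encodes Blimp-1, differed by 0.99 in naive cells (SE 0.19, adjusted p = 0.00427) and 0.83 at 12 h (SE 0.18, adjusted p = 0.0233). The 12 h call of Prdm1 was lost without WT library 1 (adjusted p = 0.0701) or 3 (0.0795) or lin28Tg library 2 (0.11) or 3 (0.0926). In CTLs neither gene was called between lin28Tg and WT (-0.04 for Tbx21, adjusted p = 0.932, and 0.67 for Prdm1, adjusted p = 0.228). In CTLs Tbx21 stood at 19.1 to 21.3 FPKM in lin28Tg, 16.4 to 26.8 in WT and 28.1 to 35 FPKM in let-7Tg libraries. Over time, Prdm1 rose in WT from 12 h to CTL by 3.65 (SE 0.23, adjusted p = 8.23e-12), and Runx3 by 1.76 (SE 0.16, adjusted p = 2.52e-09) after falling by 1.54 on the log2 scale from naive to 12 h (adjusted p = 1.41e-08). The naive lin28Tg differences of these factors came with the marker values of other cells given above, and their part was not tested.

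**Figure D5:**
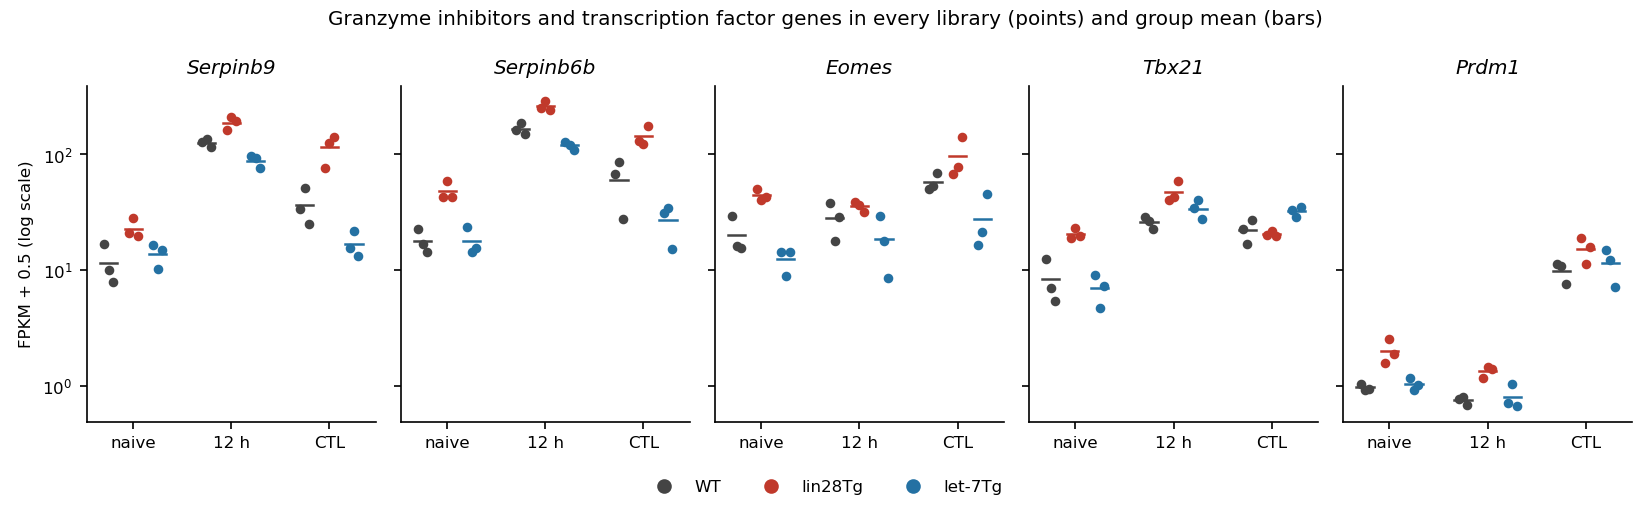
Each panel plots 1 gene (the inhibitors Serpinb9 and Serpinb6b and the factors Eomes, Tbx21 and Prdm1), with FPKM + 0.5 on a log axis by stage, a point for every library and a bar for each group mean. Serpinb9 and Serpinb6b are highest at 12 h in every genotype, and in CTLs Serpinb9 spans 76.2 to 142 FPKM in lin28Tg and 12.8 to 21.2 FPKM in let-7Tg.

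Genes that process, sort and store granzymes and genes that release the granule were compared in the same way between lin28Tg and WT CTLs, where 4.34% of all genes were called. Of 8 processing genes tested in CTLs, 1 was called higher in lin28Tg than in WT, Igf2r, a mannose 6-phosphate receptor that carries granzymes to the granule (0.46, SE 0.08, limma adjusted p = 0.0196), and 0 lower. The Igf2r call was lost without WT CTL library 1 (adjusted p = 0.0631) or 3 (0.0535) or lin28Tg CTL library 2 (0.0793) or 3 (0.0945). Against let-7Tg, Igf2r (0.70) and Gnptab (0.77), which makes the sorting tag, were higher (adjusted p = 0.000736 and 0.000992). Of 12 exocytosis genes, the lin28Tg to WT comparison of CTLs called 2 higher and 0 lower. They were Rab27a, which docks granules (0.66, SE 0.09, adjusted p = 0.00944), and the granule membrane gene Nkg7 (0.57, SE 0.12, adjusted p = 0.0346). Nkg7 was not called without any WT library, lin28Tg library 2 or 3, or let-7Tg library 2 of the CTLs (adjusted p of 0.0523 to 0.135). The median difference between lin28Tg and WT CTLs was 0.23 over the processing genes and 0.03 over the exocytosis genes. Against let-7Tg, 4 exocytosis genes of 12 were higher and 1 lower in lin28Tg CTLs, beside 21.6% of all genes called, with Rab27a at 1.13 (SE 0.09, adjusted p = 0.000208) and Lyst, needed for normal granule size, at -1.12 (SE 0.21, adjusted p = 0.00529).

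In naive lin28Tg cells, against WT, Calr, Ctsl and Ctsh were higher and Cst7 lower, of 9 processing genes tested, a share near the 34.9% of all genes; Ctsh, which encodes cathepsin H, was at 2.07 (SE 0.31, limma adjusted p = 0.00139) and Cst7, which encodes the cathepsin inhibitor cystatin F, at -0.46 (SE 0.12, adjusted p = 0.02). Cst7 was not called without WT naive library 2 (adjusted p = 0.0585) or 3 (0.0679) or lin28Tg naive library 2 (0.0748) or 3 (0.0755). These naive differences came with the myeloid and NK marker values given above, and the part of those cells was not tested. Ctsc, which encodes cathepsin C, the enzyme that removes the propeptide of granzymes, differed between these genotypes by 0.25 in naive cells (adjusted p = 0.101), -0.14 at 12 h (0.487) and -0.08 in CTLs (0.682), where its 95% interval was -0.29 to 0.13. At 12 h, 6 of 9 processing genes were called between lin28Tg and let-7Tg cells (Igf2r, Ctsh and Gnptab higher, M6pr, Srgn and Cst7 lower), beside 30.8% of all genes. In WT cells 5 of 9 processing genes rose and 2 fell from naive to 12 h, led by Srgn, which encodes the granule proteoglycan serglycin (1.92, SE 0.14, adjusted p = 4.35e-11), and 1 rose and 5 fell from 12 h to CTL. Of the 12 exocytosis genes, 2 rose and 6 fell to 12 h, and 8 rose and 2 fell to CTL. Between stages 71% and 67.5% of all genes were called, so that these counts are close to those of genes at large. Ctsw of this list, which encodes cathepsin W, fell by 3.20 on the log2 scale and then rose by 2.21 (adjusted p = 3.05e-16 and 1.55e-13).

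The genes outside the list whose group means followed a member most closely were found by Pearson's r of log2(mean FPKM + 0.5) over the 9 groups, among 14453 genes. They are a description over 9 points that share stage and scaling. Gzmb was most like Vdac1 (r = 0.995), Acly (0.994) and Ssr1 (0.994). Gzma was most like Ccr2 (0.983), Tnfrsf23 (0.977) and Atp8b4 (0.977), and Gzmc like Alpk2 (0.986), Cldnd2 (0.971) and Gm26656 (0.966). Ccr2, a chemokine receptor, went from 4.32 FPKM in naive WT to 0.695 at 12 h and 36.6 in WT CTLs, with 117 FPKM in lin28Tg and 6.07 FPKM in let-7Tg CTLs. Prf1 had lower matches, Bend4 (0.904), Pdcd7 (0.849) and Rpl10-ps6 (0.848). Among the members, r with Gzmc was 0.86 for Gzma, 0.67 for Gzmb and 0.88 to 0.93 for Gzmd to Gzmg, and r of Prf1 with the other members lay between -0.12 and 0.53.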

How the data were processed

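RNA sequencing of P14 CD8 T cells was analysed in 27 libraries, 3 for each of 9 groups of genotype and stage. The authors aligned paired-end reads to GRCm38 with TopHat 2.0.9 on Bowtie 2.0.6 and counted them with HTSeq 0.6.1, which drops reads that map to several places, and they deposited FPKM per library. The annotation release is not given in the sources used here. Deposited columns with the authors' group means, fold changes, p-values, ranks and clusters were not used.

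Reads per gene were recovered from the deposited FPKM: 100% of 462839 values above 0 were whole within 0.01 read, and libraries summed to 13862679 to 23590836 reads (median 16761360), so that 10 reads on a gene of 2 kb make 0.212 to 0.361 FPKM. A gene entered a fit with 10 or more reads at the median depth in 3 libraries and 15 or more reads in all. FPKM were scaled by trimmed means (30% of ratios and 5% of levels trimmed) and log2(FPKM + 0.5) was fitted with limma 3.58.1 (trend) in R 4.3.3. Genotypes were compared in the 9 libraries of each stage, stages and their interactions with genotype in 1 fit of 27 libraries, by limma's test in both directions and Benjamini-Hochberg adjustment over all genes at 0.05. Tables were made with Python 3.11.15, pandas 2.3.3 and numpy 2.4.6, figures with matplotlib 3.10.9, and sequences were compared with Biopython 1.88. The fits were tested on simulated data. P-values measure the spread between libraries, since the study calls them biological replicates but nothing used here ties each to a separate mouse. All 27 pairs of replicates differed by 4.4 to 58.1 times the sampling noise. Floors and intervals of reads cover counting error only.

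Members and gene lists were chosen with earlier results of these data known. All 10 members are named; list genes are named where called in a comparison described, or for their role, and the 3 genes outside the lists with the highest r are named for 4 members. Replicate numbers were checked as pairs: deviations from group means of same-numbered CTL libraries correlated in all 9 pairs (r of 0.245 to 0.715) and so did those of WT and let-7Tg 12 h libraries (0.24 to 0.549), while other pairs did not in all cases. The pairing comes from the data, not the labels, so that calls with the replicate block are no independent evidence. Alternatives were other scalings, pseudocounts of 0.1 and 1 FPKM, no filter, limma-voom on the recovered reads, only the libraries compared, all 27 libraries, the replicate block and each library left out.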

Additional observations from a re-analysis of the deposited data

Results flagged for a closer look

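The difference between genotypes was not the same at 12 h and in CTLs for several members, by the interaction term of the limma fit over 27 libraries; each value is the CTL difference minus the 12 h difference on the log2 scale. Between lin28Tg and WT cells, Prf1 changed by 2.87 (adjusted p = 4.55e-05), Gzmk by 3.5 (2.66e-05), Gzmd by 5.25 (0.0125), Gzme by 5.41 (0.0029), Gzmf by 4.66 (0.00207) and Gzmg by 5.14 (0.0157). Gzmg was not called without lin28Tg CTL library 3 (adjusted p = 0.0501). Between lin28Tg and let-7Tg cells, the values were 2.74 for Prf1 (adjusted p = 1.22e-05), 4.36 for Gzma (0.00215), 3.75 for Gzmc (0.0139), 4.66 for Gzmk (8.3e-08), 7.39 for Gzmd (0.000164), 7.0 for Gzme (5.4e-05), 6.40 for Gzmf (1.76e-05) and 5.65 for Gzmg (0.00251). By limma-voom on reads only Prf1 was called against WT and only Prf1 and Gzmk against let-7Tg, and with only the libraries compared Prf1, Gzmf and Gzmk were called against WT. Gzmd, Gzme, Gzmg and Gzmk had at most 1 read in any 12 h group, and their values thus rest on the CTL libraries alone. Like Gzmf, these genes also passed the filter on low values only through CTLs.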

How the results depend on the processing

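None of 2358 alternative values of 138 gene results reversed, and 78 of these results kept their call under every alternative. Scaling by the median of ratios and pseudocounts of 0.1 and 1 FPKM kept all 138 calls; no scaling lost 1. Counts of members called moved as follows. Without a filter on low values, lin28Tg against WT gave 0 at 12 h (2 in the fit reported) and 3 in CTLs (5), and let-7Tg against WT gave 0 at 12 h (1); fewer genes were tested in the fit reported. With limma-voom on recovered reads, let-7Tg against WT gave 0 at 12 h, lin28Tg against let-7Tg 5 in CTLs (9), WT from 12 h to CTL 5 (8), let-7Tg from naive to 12 h 1 (2), without Gzma, WT from naive to 12 h 2 (3), likewise without Gzma, and the stage interactions 1 for lin28Tg against WT (6) and 2 for lin28Tg against let-7Tg (8). With only the libraries compared, which leaves fewer libraries for the error, let-7Tg against WT gave 0 at 12 h, lin28Tg against WT 3 in CTLs, WT from 12 h to CTL 5, let-7Tg from 12 h to CTL 5 (3), and the interactions 3 for lin28Tg and 1 for let-7Tg against WT (0). With all 27 libraries in 1 fit, lin28Tg against WT gave 0 at 12 h and 8 in CTLs, and let-7Tg against WT 3 in CTLs (0). With a pseudocount of 0.1 FPKM, let-7Tg from 12 h to CTL gave 5, through members whose result in this comparison is not among the 138 followed. Apart from the filter and the smaller fits, the cause was not tested.

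The replicate block gave 9 for lin28Tg and 2 for let-7Tg against WT in CTLs, where deviations of same-numbered libraries correlated. In comparisons where the libraries share only a number, it added Gzmc (adjusted p = 0.00974) to lin28Tg and Gzmm to let-7Tg cells from naive to 12 h. From 12 h to CTL it added Gzmm to lin28Tg and Gzmc (0.0252) to let-7Tg cells. It gave 7 and 9 in the interactions of lin28Tg against WT and let-7Tg. At 12 h it lost Tbx21 between lin28Tg and let-7Tg (0.0737) and Srgn between let-7Tg and WT (0.0629). For the last, deviations of same-numbered libraries correlated. Beside these and the calls given with their results it changed no other of the 138 calls.

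Leaving out 1 library gave, in the order naive, 12 h and CTL, 2 to 4, 0 to 2 and 3 to 7 for lin28Tg against WT, 0 to 0, 0 to 2 and 0 to 2 for let-7Tg against WT, and 3 to 5, 4 to 4 and 8 to 10 for lin28Tg against let-7Tg. From naive to 12 h and from 12 h to CTL it gave 3 to 3 and 6 to 8 in WT, 4 to 5 and 8 to 10 in lin28Tg, and 2 to 3 and 3 to 3 in let-7Tg; in the interactions it gave 5 to 6, 0 to 2 and 8 to 9. Depth limits Gzmd to Gzmg, Gzmk and Gzmn, which had few or no reads before the CTL stage.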
